A study of Mus musculus with 6 samples.

Results

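The TNF receptor family of hippocampal astrocytes was followed over 10 genes: the ligand *Tnf*, the receptors *Tnfrsf1a*, *Tnfrsf1b*, *Tnfrsf12a*, *Tnfrsf11b*, *Tnfrsf19*, *Tnfrsf21*, *Fas* and *Ltbr*, and the adaptor kinase *Ripk1*. They were chosen by name, with earlier results of these data known, as rows of the deposited tables, which list 24421 genes, and all 10 were found. *Tnfrsf1a*, which encodes TNF receptor 1, rose after microglial ablation from 39.1 ± 5.56 to 80.5 ± 5.50 TPM (SD, n = 3) and became the most abundant member. TPM is the unit of transcript abundance that takes gene length and library size into account. *Tnfrsf12a*, *Fas*, *Ltbr* and *Tnf* were also higher in every DT library than in every PBS library, but none of these 4 passed the threshold over all genes. *Tnfrsf19*, *Tnfrsf21*, *Ripk1*, *Tnfrsf1b* and *Tnfrsf11b* overlapped between the groups.

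Astrocytes were isolated from adult male C57BL/6 mice whose *Siglech* locus carries the diphtheria toxin (DT) receptor on both alleles, written *Siglech* dtr/dtr, so that DT kills microglia. All 6 libraries carried these alleles. In the PBS group 3 libraries came from mice injected with PBS, in the DT group 3 came from mice given DT intraperitoneally at 50 µg/kg, and hippocampi were taken at 2 days. Each library was a pool of 2 mice, the 3 pools of a group came from separate experiments, and cells were depleted of CD11b-positive cells before they were captured through astrocyte cell surface antigen-2 (ACSA-2). No library of mice given DT without the receptor is analysed here, so an effect of the toxin itself and an effect of losing microglia cannot be told apart.

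The libraries held 21704891 to 32933975 reads assigned to genes. The label was checked against marker genes in TPM. The 10 astrocyte markers summed to 33000 to 34000 TPM after PBS and 35200 to 37900 TPM after DT, with 7 of them higher and 3 lower. *Gfap*, whose values are given below, is among the 7. The sums thus include its rise and are no separate measure of astrocyte content. *Glul* and *Slc1a3* were lower in TPM in each DT library than in any PBS library. Their means were 6320 and 7410 TPM after PBS and 5360 and 6900 TPM after DT. *Atp1b2*, the antigen of ACSA-2, was at 1030, 979 and 1030 TPM after PBS and at 1330, 1190 and 1220 TPM after DT. The 14 microglia markers, all lower after DT, summed to 234 to 282 TPM after PBS and to 138 to 152 TPM after DT, and no DT library held a read of *Siglech*. *Gfap*, the intermediate filament of reactive astrocytes, was at 994, 1080 and 1250 TPM after PBS and at 4530, 4300 and 3890 TPM after DT.

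TNF is a trimeric cytokine that binds TNF receptor 1, found on most cell types, and TNF receptor 2, found mainly on immune cells, glia and endothelium. At TNF receptor 1 the adaptor TRADD, the kinase RIPK1, TRAF proteins and cellular IAPs build a complex that activates IKK and NF-kappa B, or, when this is blocked, a complex with FADD and caspase-8 that kills the cell. Related receptors use parts of this machinery, among them the lymphotoxin beta receptor and Fn14, which stabilise the kinase NIK, and the death receptor Fas. In the brain microglia are a major source of TNF, and astrocytes respond to it with chemokines and adhesion molecules.

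The promoters of the 5 members whose groups did not overlap are shown because their transcripts lay higher in each DT library. Each sequence is the 200 bases before the RefSeq transcript start on GRCm38.p6, which is mm10, written 5′ to 3′ on the strand of the gene, with matches to the searched motifs in capitals. The windows are chr6:125349523-125349722 on the plus strand for *Tnfrsf1a*, chr17:23677450-23677649 on the minus strand for *Tnfrsf12a*, chr19:34290459-34290658 on the plus strand for *Fas*, chr6:125313886-125314085 on the minus strand for *Ltbr* and chr17:35202008-35202207 on the minus strand for *Tnf*.
Tnfrsf1a: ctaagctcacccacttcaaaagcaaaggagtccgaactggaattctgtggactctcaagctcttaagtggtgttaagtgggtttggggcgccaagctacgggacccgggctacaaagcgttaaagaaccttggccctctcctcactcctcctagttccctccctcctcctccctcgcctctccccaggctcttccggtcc
Tnfrsf12a: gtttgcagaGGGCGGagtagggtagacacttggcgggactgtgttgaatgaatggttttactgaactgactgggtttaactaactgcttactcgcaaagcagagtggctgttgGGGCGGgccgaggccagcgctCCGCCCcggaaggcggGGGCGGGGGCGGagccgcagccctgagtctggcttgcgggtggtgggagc
Fas: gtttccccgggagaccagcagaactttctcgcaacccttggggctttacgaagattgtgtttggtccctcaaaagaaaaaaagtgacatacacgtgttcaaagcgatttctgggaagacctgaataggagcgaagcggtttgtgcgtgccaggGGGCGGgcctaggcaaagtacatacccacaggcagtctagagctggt
Ltbr: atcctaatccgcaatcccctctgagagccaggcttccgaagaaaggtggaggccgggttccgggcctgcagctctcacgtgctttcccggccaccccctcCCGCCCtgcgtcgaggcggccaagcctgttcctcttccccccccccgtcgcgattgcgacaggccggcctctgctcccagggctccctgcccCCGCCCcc
Tnf: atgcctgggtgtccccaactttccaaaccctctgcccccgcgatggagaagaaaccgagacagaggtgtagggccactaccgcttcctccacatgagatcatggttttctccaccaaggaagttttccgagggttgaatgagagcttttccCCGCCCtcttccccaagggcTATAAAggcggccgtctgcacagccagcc

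The motifs searched on both strands were the NF-kappa B consensus, the TATA box TATAAA, the AP-1 site TGANTCA and the GC box GGGCGG, whose matches may overlap, and they were chosen after the sequences had been read. The window of *Tnf* held a TATA box that begins 29 bases before the start, and a GC box 49 bases before it. The windows of *Ltbr* and *Fas* held GC boxes and no TATA box, with those of *Ltbr* beginning 8 and 100 bases before the start and that of *Fas* 47 bases before it. *Tnfrsf12a* had 5 GC boxes in a window with 63.0% G and C, and *Tnfrsf1a* had a match to none of the 4 motifs. The *Tnfrsf1a* window lies inside the GENCODE gene, which begins 5′ of the RefSeq start, and holds no annotated UTR, while that of *Tnfrsf12a* takes in 19 annotated UTR bases. RefSeq promoters were matched for 9 members with 11 starts, all but *Tnfrsf11b*. Of these 11 windows, 9 held a GC box, 1 a TATA box and 0 the NF-kappa B consensus or the AP-1 site. Among all 32851 promoters of the table, 31.0% of windows of the same length held a GC box, 9.96% a TATA box, 6.07% the NF-kappa B consensus and 5.48% the AP-1 site. At such shares 0 matches in 11 windows say little for the NF-kappa B consensus and the AP-1 site. The median window of all promoters held 53.0% G and C, and those of the members 50.0% to 70.5%. The part of G and C content in the GC boxes was not tested. A match, or the lack of one within 200 bases, is a description of the letters and says nothing of whether a factor binds.

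Differences between the groups were computed on log2(CPM + 0.1), where CPM is the read count scaled to library size, with limma over the 15137 genes whose mean CPM reached 0.5, two-sided and adjusted by Benjamini-Hochberg over all of them. Fold changes below are on this scale, where the size for genes with few reads depends on the pseudocount, as for *Tnf*, with a difference of 2.43 at a pseudocount of 0.1 and of 1.42 at a pseudocount of 0.5. Of the genes tested, 0.713% passed an adjusted p under 0.05 in either direction, 0.555% higher and 0.159% lower after DT, and of the 10 members 1 was higher and 0 were lower. On the recovered reads DESeq2 called 1.50% of genes higher, edgeR's exact test 1.25% and edgeR's quasi-likelihood test 0.575%, against 4, 4 and 1 of the members. At an unadjusted p under 0.05, 5.91% of the genes tested were higher in limma, and 5 of the members. In CPM the groups did not overlap in either direction in 16.3% of the genes tested. They did not overlap, with DT higher, in 8.75% of the genes tested and in 5 of the 10 members. With DT lower they did not overlap in 7.57% of the genes tested and in 0 members. The median difference of the members was 0.28 on this log2 scale, against -0.01 over all genes tested, with 9 members higher and 1 lower. *Tnf* reached the filter only through the DT group.

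**Figure D1:**
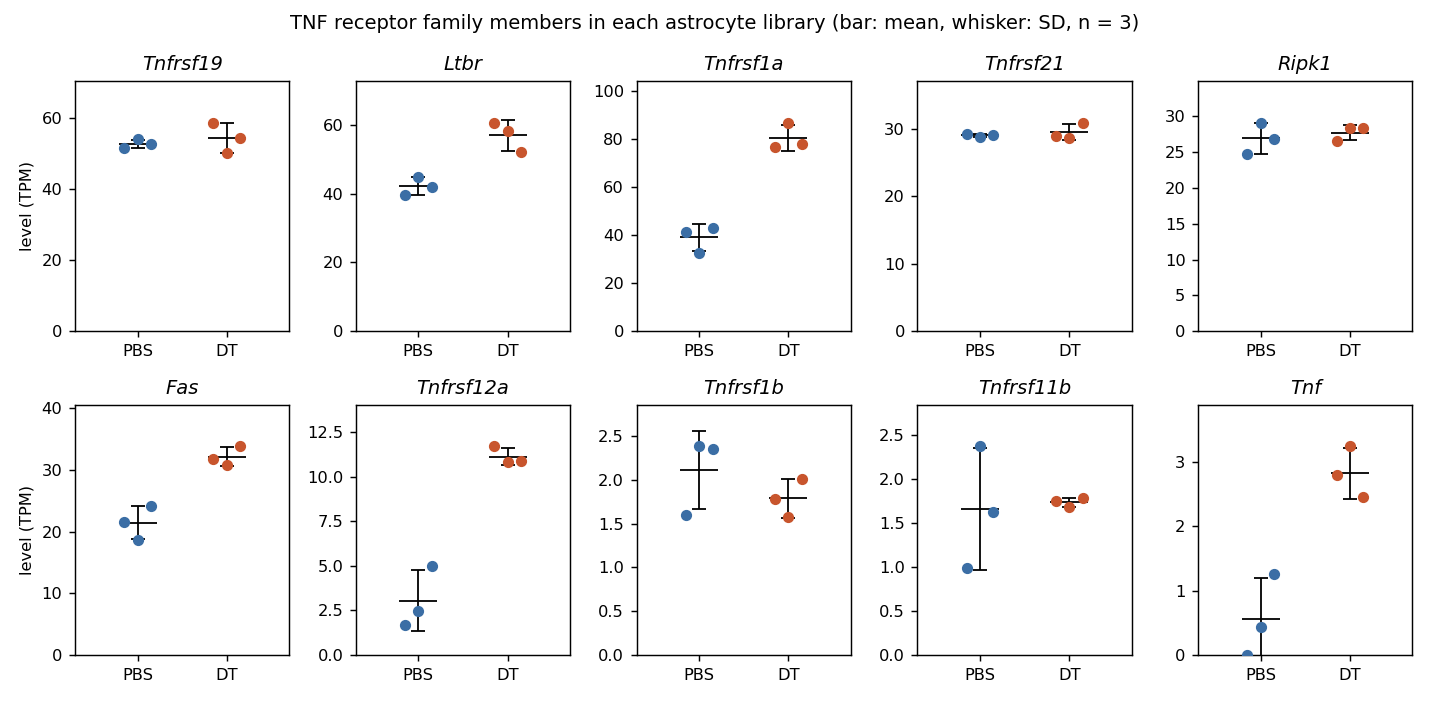
Level of each family member in TPM (vertical axes, each from 0) in the 3 PBS and 3 DT libraries. Each point is 1 library in replicate order, bars are means and whiskers the SD (the lower whisker of Tnf after PBS is clipped at 0). The DT points lie above all PBS points for Tnfrsf1a, Ltbr, Fas, Tnfrsf12a and Tnf, and overlap with them for the other 5.

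The ligand *Tnf* is encoded on chromosome 17 between 35199381 and 35202007, minus strand (GENCODE M21, mm10). It was counted with 0, 9 and 16 reads in PBS replicates 1, 2 and 3 and with 37, 55 and 32 reads in DT replicates 1, 2 and 3. In TPM these were 0, 0.438 and 1.25 after PBS and 2.79, 3.24 and 2.45 after DT. All DT libraries were higher than all PBS libraries, and the PBS libraries differed widely among themselves. The 0 reads of PBS replicate 1 allow up to 3 reads, or 0.138 CPM, by counting error alone. The difference was 2.43 on the log2(CPM + 0.1) scale (95% interval 0.83 to 4.03, adjusted p = 0.270 with limma), and the exact permutation test of CPM gave a two-sided p of 0.1, the smallest that 3 against 3 libraries allow and the value of all 5 members without overlap. Ranked by TPM among the genes tested, *Tnf* moved from percentile 1.5 after PBS to percentile 12.4 after DT.

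*Tnfrsf1a* lies on chromosome 6 between 125349362 and 125362484, plus strand. TNF receptor 1, its product, carries a death domain and relays most inflammatory signals of soluble TNF. Its level was 41.4, 32.7 and 43.0 TPM in the PBS libraries and 76.7, 86.8 and 78.0 TPM in the DT libraries, from 675 to 1916 reads. The groups lay far apart, and replicate 2 was the lowest PBS and the highest DT library. The difference was 1.04 on the log2(CPM + 0.1) scale, or 2.05-fold, with a 95% interval of 0.77 to 1.30. Adjusted over all genes it passed the threshold (adjusted p = 0.00612, limma), as the gene with rank 35 by p-value. Without the variance trend in limma the same difference lost its call (adjusted p = 0.0726), while the call was made in the other 16 of 17 alternatives. Their adjusted p-values ran from 6.73e-13 with DESeq2 to 0.0442 with limma without DT replicate 2. *Tnfrsf1a* moved from percentile 66.9 of the genes tested to percentile 84.5 in TPM.

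The genes whose levels followed *Tnfrsf1a* most closely over the 6 libraries, among 7715 genes whose mean CPM reached 20, were *Irgm1* (Pearson r = 0.995), an interferon-induced GTPase gene, *Mrc1* (r = 0.993), the macrophage mannose receptor gene, and *Impdh2* (r = 0.992), of purine synthesis. These correlations rest on 6 points that fall into the 2 treatment groups, and are given as a description. The log2(CPM + 0.1) differences of these genes were 0.85, 1.49 and 0.15.

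Marker sums of some other cell types also differed between the groups, some higher and some lower after DT. The 10 markers of border-associated macrophages, cells that can also express TNF receptors, summed to 34.4, 28.0 and 44.1 TPM after PBS. After DT they summed to 86.3, 101 and 77.0 TPM. All 8 tested markers had a higher mean after DT and 3 passed the threshold, where 0.555% of all genes tested were called higher. In CPM the DT libraries were all above the PBS libraries for 6 of the 8, where 8.75% of all genes tested were. *Cd163* and *Stab1* overlapped between the groups (adjusted p = 0.602 and 0.407, limma). *Cbr2*, 1 of the 8, reached the filter only through the DT group, as its PBS mean was 0.276 CPM. The 2 untested markers, *Clec10a* and *Ms4a7*, overlapped between the groups, with the DT mean lower for *Clec10a* and higher for *Ms4a7*. Of the 8 monocyte and neutrophil markers, 6 had no read in any library, *S100a8* and *S100a9* among them, and the sum was at most 7.04 TPM. The 10 endothelial markers summed to 815 to 1320 TPM after PBS and 696 to 858 TPM after DT. The 8 choroid plexus markers summed to 385, 2030 and 102 TPM in the PBS libraries and to 3430, 2330 and 1250 TPM in the DT libraries, and ependymal markers to 482 to 618 and 637 to 1110 TPM. The 10 oligodendrocyte lineage markers summed to 510 to 593 TPM after PBS and 412 to 493 TPM after DT, and the sums of mural cell, fibroblast and neuron markers overlapped between the groups. The part of these cells in the levels of the members was not tested. In bulk RNA more or fewer cells of a type and more or less RNA per cell cannot be told apart.

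**Figure D2:**
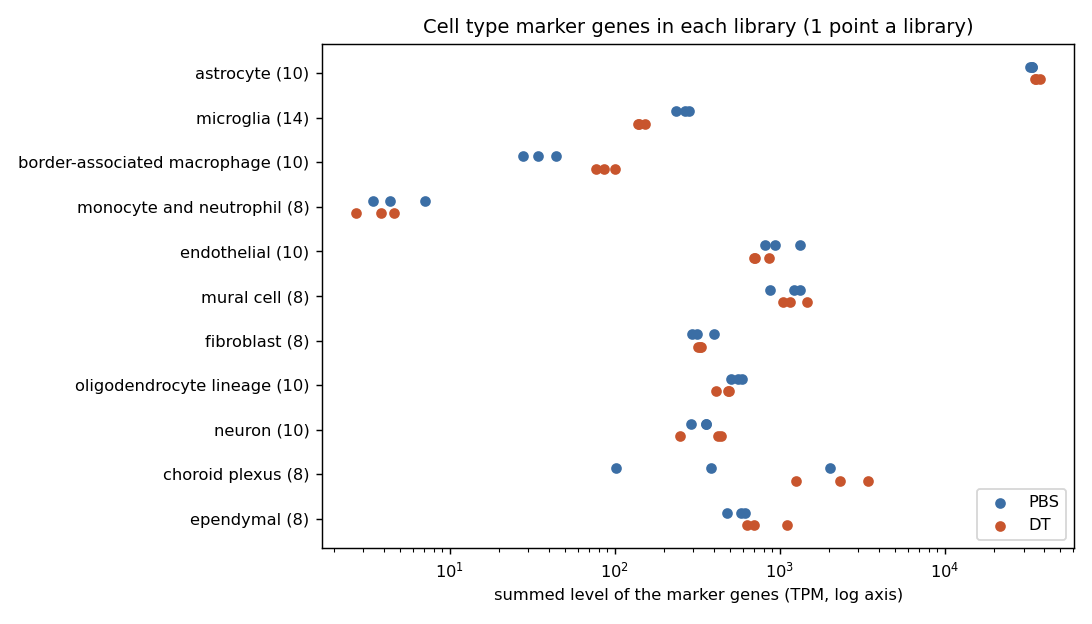
Summed TPM of marker genes of each cell type (horizontal log axis), 1 point a library, with the number of markers in brackets. Astrocyte markers lie between 33000 and 37900 TPM, microglia markers are lower in all DT libraries, and border-associated macrophage markers are higher in all DT libraries.

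*Tnfrsf1b*, at chromosome 4 between 145213463 and 145246870 (minus strand), encodes TNF receptor 2, which lacks a death domain and binds membrane-bound TNF with preference. It was at 1.60, 2.38 and 2.35 TPM after PBS and at 1.78, 1.57 and 2.01 TPM after DT, with 60 to 131 reads per library. The groups overlapped, and the difference was -0.22 on the log2(CPM + 0.1) scale (95% interval -0.73 to 0.28, adjusted p = 0.777, limma). The interval still holds a moderate change in either direction. In TPM *Tnfrsf1a* was 25.9, 13.7 and 18.3 times *Tnfrsf1b* in the PBS libraries and 43.1, 55.2 and 38.8 times in the DT libraries. This ratio of the receptors was thus higher in each DT library, by 1.27 on the log2 scale, or 2.42-fold. The exact permutation test of the log2 ratio gave a two-sided p of 0.1, the smallest that 3 against 3 libraries allow. Across leaving out each library, and with CPM in place of TPM, the log2 difference of the ratio lay between 1.05 and 1.51.

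*Tnfrsf12a*, at chromosome 17 between 23675445 and 23677468 (minus strand), encodes Fn14, the small receptor of TWEAK that tissues induce after injury. Its reads numbered 13, 28 and 36 in the PBS libraries and 90, 105 and 79 in the DT libraries. The levels were 1.67, 2.47 and 4.97 TPM after PBS and 11.7, 10.8 and 10.9 TPM after DT. The DT libraries agreed closely, while the PBS libraries were spread, with PBS replicate 3 at the top. The difference was 1.81 on the log2(CPM + 0.1) scale (95% interval 1.02 to 2.61), or 3.51-fold, and missed the threshold (adjusted p = 0.0751, limma). It passed with a pseudocount of 1 (adjusted p = 0.0413), without PBS replicate 3 (0.0226), with edgeR's exact test (0.000173) and with DESeq2 (0.000534), and over the 17 alternatives the adjusted p ran from 0.000173 to 0.284. *Tnfsf12*, the gene of its ligand TWEAK, was at 40.7 ± 5.83 TPM after PBS and 37.2 ± 2.64 TPM after DT (SD, n = 3). The groups of *Tnfsf12* overlapped, and its difference was -0.14 on the log2(CPM + 0.1) scale (adjusted p = 0.755, limma).

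*Fas*, at chromosome 19 between 34290666 and 34327772 (plus strand), encodes the death receptor CD95. It was at 21.5, 18.7 and 24.1 TPM after PBS and at 31.8, 30.8 and 33.8 TPM after DT, from 238 to 462 reads. The lowest DT library was well above the highest PBS library. The difference of 0.56 on the log2(CPM + 0.1) scale (95% interval 0.27 to 0.86), or 1.48-fold, did not pass over all genes (adjusted p = 0.132, limma). *Fasl*, which encodes the ligand of Fas, had no read in any of the 6 libraries.

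*Ltbr*, at chromosome 6 between 125306571 and 125313885 (minus strand), encodes the lymphotoxin beta receptor. Its levels were 39.7, 44.9 and 41.8 TPM after PBS and 60.6, 58.3 and 52.0 TPM after DT, from 627 to 1249 reads. All DT libraries were above all PBS libraries, with a difference of 0.42 on the log2(CPM + 0.1) scale (95% interval 0.22 to 0.63), or 1.34-fold (adjusted p = 0.111, limma). *Fas* and *Ltbr* each passed the threshold in 2 of 17 alternatives, DESeq2 and edgeR's exact test, with adjusted p-values from 0.0177 to 0.342 for *Fas* and from 0.00944 to 0.369 for *Ltbr*. The genes of its ligands were hardly counted, with 0 to 3 reads of *Lta*, 0 to 7 of *Ltb* and none of *Tnfsf14* per library. *Ltbr* and *Tnfrsf1a* are neighbours on chromosome 6 in opposite orientation, 35476 bases apart, with *Scnn1a*, a sodium channel subunit gene, between them. *Scnn1a* was at 4.83 CPM after PBS and 6.92 CPM after DT, a log2(CPM + 0.1) difference of 0.50 (adjusted p = 0.558, limma).

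*Tnfrsf19*, at chromosome 14 between 60963875 and 61046490 (minus strand), encodes TROY, a receptor of the embryonic and adult nervous system that can stand in for p75 in the Nogo receptor complex. It was the highest family member after PBS, at 51.7, 54.0 and 52.6 TPM, and lay at 58.7, 50.3 and 54.4 TPM after DT. The groups overlapped, and the difference was 0.04 on the log2(CPM + 0.1) scale with a 95% interval of -0.14 to 0.21 (adjusted p = 0.912, limma). Partners of TROY were also measured, with the Nogo receptor gene *Rtn4r* at 4.50 ± 0.585 and 4.28 ± 0.406 TPM and *Lingo1* at 10.2 ± 2.52 and 9.99 ± 1.97 TPM after PBS and DT (SD, n = 3).

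*Tnfrsf21*, at chromosome 17 between 43016555 and 43089189 (plus strand), encodes death receptor 6, for which the amyloid precursor protein is a described partner. It varied little among the libraries, at 29.2, 28.8 and 29.1 TPM after PBS and 29.0, 28.6 and 30.9 TPM after DT. Its difference on the log2(CPM + 0.1) scale was 0.01, with a 95% interval of -0.16 to 0.18 (adjusted p = 0.979, limma). *App*, the gene of that partner, was at 437 ± 59.0 TPM after PBS and 413 ± 18.6 TPM after DT (SD, n = 3; adjusted p = 0.797, limma).

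*Tnfrsf11b*, at chromosome 15 between 54250619 and 54278484 (minus strand), encodes osteoprotegerin, a secreted decoy receptor of RANKL and TRAIL. It was among the lowest members, at 0.983, 2.37 and 1.62 TPM after PBS and 1.75, 1.68 and 1.78 TPM after DT, from 21 to 75 reads. Its DT libraries fell inside the range of its PBS libraries (difference 0.14 on the log2(CPM + 0.1) scale, 95% interval -0.60 to 0.89, adjusted p = 0.920, limma). Of its ligand genes, *Tnfsf10* was at 4.86 ± 1.32 TPM after PBS and 3.60 ± 0.486 TPM after DT (SD, n = 3), and *Tnfsf11* had 0 to 5 reads per library.

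*Ripk1*, at chromosome 13 between 34002363 and 34037147 (plus strand), encodes the kinase through which TNF receptor 1 reaches both NF-kappa B and cell death. Its levels were 24.8, 29.1 and 26.8 TPM after PBS and 26.5, 28.3 and 28.4 TPM after DT. They overlapped, with a difference of 0.03 on the log2(CPM + 0.1) scale and a 95% interval of -0.14 to 0.21 (adjusted p = 0.914, limma). *Serpinb6a* overlaps *Ripk1* on the opposite strand by 432 bases and was at 52.9 CPM after PBS and 54.5 CPM after DT.

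**Figure D3:**
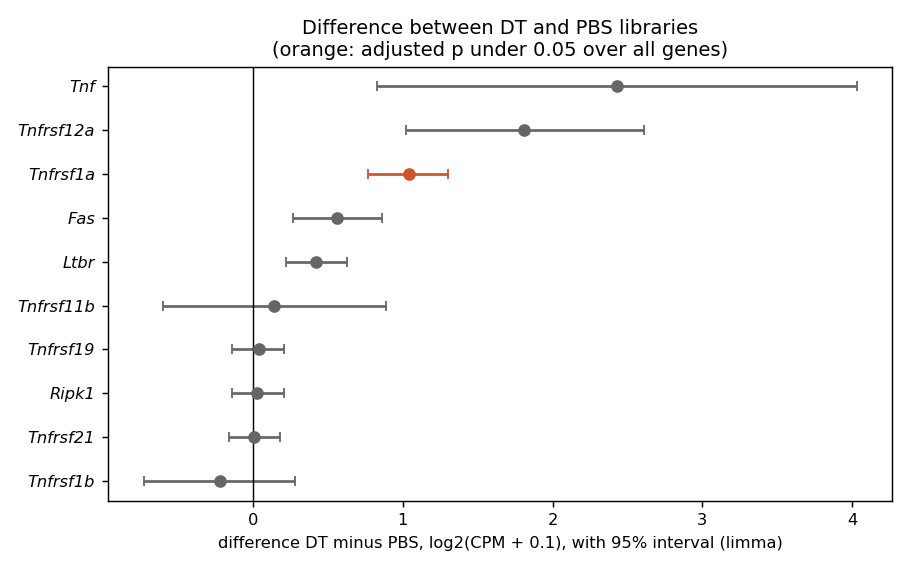
Difference between DT and PBS for each member on the log2(CPM + 0.1) scale (horizontal axis), with the 95% interval from limma as whiskers, n = 3 libraries a group. Tnfrsf1a at 1.04 is the member past the threshold (orange). Tnf at 2.43 and Tnfrsf12a at 1.81 lie farther out with wide intervals, and the intervals of the lower 5 genes cross 0.

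In order of level after PBS, *Tnfrsf19* came first, with 52.8 ± 1.17 TPM (SD, n = 3). *Ltbr* and *Tnfrsf1a* followed, at levels that overlapped each other, then *Tnfrsf21* and *Ripk1*, which also overlapped, and then *Fas*. *Tnfrsf12a*, *Tnfrsf1b*, *Tnfrsf11b* and *Tnf* formed the low end, each overlapping with the next. After DT *Tnfrsf1a* came first, above the overlapping pair *Ltbr* and *Tnfrsf19*, then *Fas* and *Tnfrsf21*, whose ranges overlapped, and *Ripk1*. *Tnfrsf12a* then stood alone at 11.1 ± 0.490 TPM, clear of *Tnf* at 2.83 ± 0.396 TPM (SD, n = 3), and *Tnfrsf1b* and *Tnfrsf11b* were lowest and overlapped.

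The 8 receptor genes summed to 188, 186 and 200 TPM in the PBS libraries and to 272, 269 and 264 TPM in the DT libraries. The mean sum was thus 76.9 TPM higher after DT, of which *Tnfrsf1a* made up 53.8%, *Ltbr* 19.3%, *Fas* 13.8% and *Tnfrsf12a* 10.5%. The share of *Tnfrsf1a* in the summed receptor transcripts was 20.4 ± 2.47% after PBS and 30.0 ± 2.09% after DT (SD, n = 3). The share of *Tnfrsf19* went the other way, from 27.6 ± 1.31% to 20.3 ± 1.46% (SD, n = 3), while its own level overlapped. *Ltbr* held 22.0 ± 1.78% and 21.2 ± 1.35% (SD, n = 3).

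**Figure D4:**
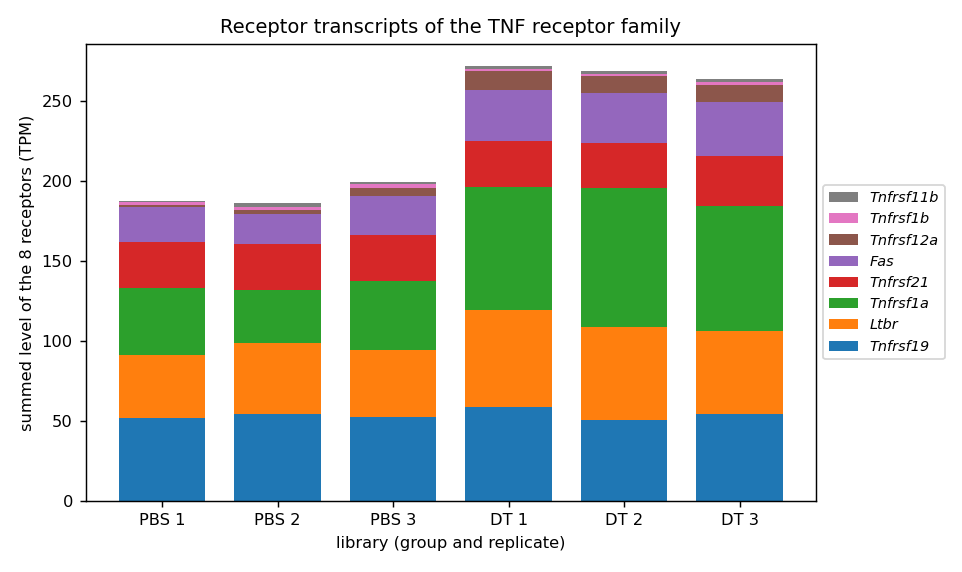
Summed level of the 8 receptor genes in TPM (vertical axis) in each library, with 1 colour for each gene. The sum lies between 186 and 200 TPM in the PBS libraries and between 264 and 272 TPM in the DT libraries, and the green segment of Tnfrsf1a is the one that widens most.

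The rest of the pathway was read from gene lists. Of 17 other TNF superfamily ligands, 4 were tested, and 1 was higher and 3 lower, with a median difference of -0.27 on the log2(CPM + 0.1) scale. None passed the threshold with limma, DESeq2 or either edgeR test, and 1 was lower at an unadjusted p under 0.05. That gene was *Tnfsf13*, which encodes APRIL and was at 29.7 ± 3.04 TPM after PBS and 21.5 ± 3.14 TPM after DT (SD, n = 3; difference -0.48, adjusted p = 0.310, limma). *Eda*, the ectodysplasin gene, was at 7.33 ± 1.97 and 7.84 ± 0.951 TPM (SD, n = 3).

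Of 20 other TNF superfamily receptors, 13 were tested, with 9 higher and 4 lower and a median difference of 0.14. With limma 0 passed the threshold and 1 was higher at an unadjusted p under 0.05, while DESeq2 and edgeR's exact test each called 1 higher and edgeR's quasi-likelihood test 0. That gene was *Ngfr*, which encodes the neurotrophin receptor p75 and is named here after its values were seen. *Ngfr* was at 0.729 ± 0.0885 TPM after PBS and 2.21 ± 0.668 TPM after DT (SD, n = 3), from 17 to 80 reads, with no overlap and a difference of 1.41 on the log2(CPM + 0.1) scale (adjusted p = 0.114 with limma, 0.00196 to 0.356 over 16 alternatives). The receptors of this list with the highest levels were *Relt*, at 25.9 ± 2.60 and 26.1 ± 2.87 TPM, *Tnfrsf18*, the GITR gene, at 9.69 ± 0.904 and 11.4 ± 1.65 TPM, and *Tnfrsf25*, the death receptor 3 gene, at 2.72 ± 0.621 and 3.71 ± 0.303 TPM (SD, n = 3).

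Of the 24 genes of receptor-proximal signalling, all were tested, and 12 were higher and 12 lower, with a median difference of 0.00. With limma 0 passed the threshold and 1 was higher at an unadjusted p under 0.05, while DESeq2 and edgeR's exact test each called 1 and edgeR's quasi-likelihood test 0. That gene was *Map3k14*, which encodes NIK, the kinase that Fn14 and the lymphotoxin beta receptor stabilise, and it too is named after its values were seen. *Map3k14* was at 15.6, 15.3 and 15.2 TPM after PBS and at 23.1, 25.4 and 20.4 TPM after DT. Its difference was 0.56 on the log2(CPM + 0.1) scale with a standard error of 0.10 (adjusted p = 0.0529 with limma, 0.000407 to 0.262 over 17 alternatives). The most abundant genes of the list were *Tab2*, an adaptor of the kinase TAK1, at 70.5 ± 7.02 and 69.8 ± 4.74 TPM, *Birc2*, a cellular IAP gene, at 62.9 ± 2.90 and 60.1 ± 1.45 TPM, and *Chuk*, the IKK alpha gene, at 56.6 ± 5.13 and 57.8 ± 2.56 TPM (SD, n = 3). *Tradd*, the adaptor of TNF receptor 1, was at 5.56 ± 1.48 TPM after PBS and 4.37 ± 0.739 TPM after DT (SD, n = 3; adjusted p = 0.748, limma).

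Of 10 genes of death-inducing signalling, 9 were tested, 7 were higher and 2 lower, and the median difference was 0.17, with 0 past the threshold in limma, DESeq2 and both edgeR tests and 0 at an unadjusted p under 0.05. *Xiap*, a caspase inhibitor gene, was at 51.3 ± 7.74 and 46.5 ± 14.5 TPM, *Diablo*, which encodes an antagonist of it, at 44.0 ± 1.30 and 43.7 ± 0.618 TPM, and *Cflar*, which encodes the caspase-8 inhibitor cFLIP, at 30.0 ± 4.66 and 33.4 ± 4.95 TPM (SD, n = 3). *Ripk3*, the kinase of necroptosis, stayed under the filter with 0 to 13 reads per library.

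Of 5 genes that shed ligands and receptors or limit shedding, 2 were higher and 3 lower, with a median difference of -0.06 and 0 past the threshold in limma, DESeq2 and both edgeR tests. *Rhbdf1*, a partner of the TNF-converting enzyme, was the 1 gene with an unadjusted p under 0.05, at 47.5 ± 3.17 TPM after PBS and 59.8 ± 4.58 TPM after DT (SD, n = 3; adjusted p = 0.210, limma). *Adam10*, a sheddase gene, was at 46.1 ± 2.79 and 42.0 ± 2.81 TPM, and *Timp3*, which encodes an inhibitor of sheddases, at 439 ± 15.1 and 426 ± 7.41 TPM (SD, n = 3). The 4 tested partner genes of the members, with *App*, *Lingo1* and *Rtn4r* among them, had a median difference of -0.08, and 0 passed the threshold in limma, DESeq2 or either edgeR test, nor an unadjusted p under 0.05.

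Of 18 genes that TNF induces in many cell types, 17 were tested, and 14 were higher and 3 lower, with a median difference of 0.36 on the log2(CPM + 0.1) scale against -0.01 over all genes tested. With limma 3 of them passed the threshold, all higher, where 0.555% of all genes tested were called higher. These 3 were *Ccl2*, a monocyte chemokine gene, *Cxcl1*, a neutrophil chemokine gene, and *Icam1*, an adhesion molecule gene. *Ccl2*, at 0.488 CPM after PBS, reached the filter only through the DT group. *Icam1* was at 6.10, 7.46 and 8.68 TPM after PBS and at 15.9, 15.7 and 15.7 TPM after DT (adjusted p = 0.0174 with limma, 2.40e-07 to 0.0967 over 17 alternatives). *Cxcl1* was at 2.14, 1.26 and 2.04 TPM after PBS and at 9.10, 7.67 and 10.2 TPM after DT (adjusted p = 0.0223 with limma, 2.20e-08 to 0.107 over 16 alternatives). The groups of both genes were clearly apart, as were those of *Ccl2*, at 2.53, 1.99 and 0.514 TPM after PBS and 14.3, 9.96 and 14.1 TPM after DT (adjusted p = 0.0314 with limma, 2.74e-09 to 0.138 over 17 alternatives). Without PBS replicate 2, or without any 1 of the 3 DT libraries, 0 of the 17 genes passed the threshold in limma, 2 passed without PBS replicate 3 and 3 without PBS replicate 1. Without the variance trend 1 passed, *Cxcl1*. DESeq2 and edgeR's exact test each called 5 higher, and 9 were higher at an unadjusted p under 0.05 in limma, where 5.91% of all genes tested were. In 10 of the 17 genes the DT libraries were all above the PBS libraries, where 8.75% of all genes tested were. This list was chosen with earlier results of these data known, so its counts beside those shares are a description and not a test.

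The 3 genes of this list with the highest TPM did not pass the threshold. *Vcam1*, an adhesion molecule gene, was at 353 ± 24.1 and 346 ± 26.0 TPM, *Sod2*, which encodes the mitochondrial superoxide dismutase, at 91.9 ± 4.33 and 90.5 ± 3.85 TPM, and *Nfkbia*, which encodes the NF-kappa B inhibitor alpha, at 57.5 ± 6.64 and 69.6 ± 0.960 TPM (SD, n = 3). *Nfkbia* was higher in each DT library than in any PBS library, with a difference of 0.27 on the log2(CPM + 0.1) scale (95% interval 0.05 to 0.49, adjusted p = 0.380, limma). *Relb* and *Bcl3* were the genes of the list called by DESeq2 and edgeR's exact test and not by limma. *Relb*, which like *Bcl3* is named after its values were seen, encodes the NF-kappa B subunit that acts downstream of NIK, and was at 4.78, 4.93 and 5.62 TPM after PBS and at 12.6, 7.08 and 9.64 TPM after DT. The *Relb* groups did not overlap, and the difference of 0.87 on the log2(CPM + 0.1) scale missed the threshold (adjusted p = 0.210 with limma, 0.0265 to 0.437 over 17 alternatives). *Bcl3*, which encodes an atypical I kappa B protein, was at 1.19, 0.58 and 1.65 TPM after PBS and at 3.66, 5.22 and 3.16 TPM after DT, also without overlap. Its difference was 1.72 on the log2(CPM + 0.1) scale (adjusted p = 0.140 with limma, 0.00367 to 0.440 over 16 alternatives).

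**Figure D5:**
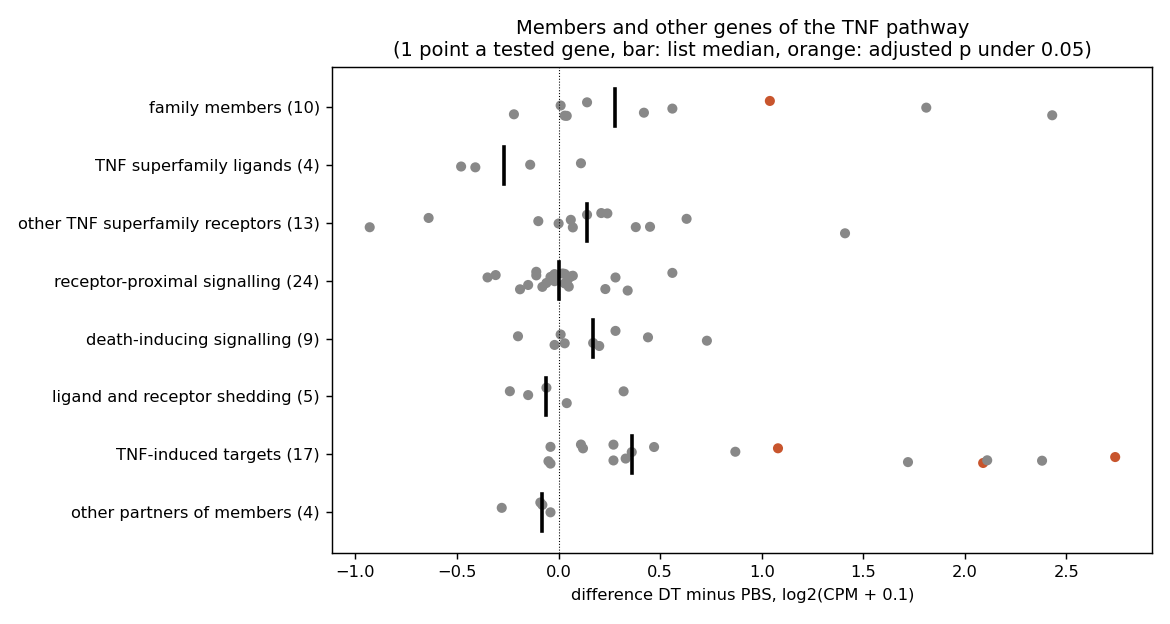
Difference between DT and PBS on the log2(CPM + 0.1) scale (horizontal axis) for each tested gene of the members and the 7 pathway lists, with list medians as bars and the number of tested genes in brackets. Orange points passed the threshold with limma, and these are Tnfrsf1a among the members and Ccl2, Cxcl1 and Icam1 among the TNF-induced targets.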

How the data were processed

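Astrocyte RNA was sequenced as 151-nt paired reads from a stranded kit. According to the methods and the submitters' processing notes, the authors trimmed reads with Trim Galore 0.5.0, checked them with FastQC 0.11.8, mapped them to mm10 with HISAT2 2.1.0 using strand, removed ribosomal reads with bedtools 2.25.0, quantified genes with StringTie 1.3.5 and compared groups with edgeR 3.24.3 in R 3.5.1. They deposited TPM, and a signal that is CPM relative to scaled library sizes, so that a column sums to between 980428 and 1026170. Plain CPM had been assumed in the design. The authors' own comparison, deposited as log2 fold changes with p-values and q-values, was not used. Whole reads, within 0.0006 CPM, were recovered for 100% of values. They derive from StringTie estimates, whose read length setting is not given in the sources used here. In the gene column 27 names had been turned into dates.

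Genes whose mean CPM reached 0.5 were compared on log2(CPM + 0.1) with limma 3.58.1 (variance trend) in R 4.3.3. Alternatives were leaving out each library, a block for the replicate number, dropping the variance trend, pseudocounts of 0.5 and 1, no filter or a minimum mean CPM of 2, TPM in place of CPM, quantile normalization, and DESeq2 1.42.0 and edgeR 4.0.16 (quasi-likelihood and exact tests) on the recovered reads. Scripts were tested on simulated data. Named are all members, each list's genes past the threshold and its 3 genes with the highest TPM, the members' ligands, and the 3 genes most correlated with a member past the threshold. *Ngfr*, *Map3k14*, *Relb*, *Bcl3*, *Tradd*, *Ripk3*, *Scnn1a*, *Serpinb6a* and single cell type markers were named outside this rule, after values were seen. Members and lists were chosen with earlier results of these data known. Intervals of read counts cover counting error only. The p-values set a difference against the spread between pools, for which limma also draws on the variances of the other genes tested.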

Additional observations from a re-analysis of the deposited data

How the results depend on the processing

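With 3 pools a group the exact permutation test cannot go below 0.1, and *Tnf*, *Tnfrsf11b*, *Tnfrsf1b* and *Tnfrsf12a* rest on at most 131 reads per library. For values that changed, the cause was not tested unless the fit held fewer libraries or genes. Dropping the variance trend left 35 genes higher and 11 lower, 0 members were called, and *Tnfrsf1a* (1.04) missed the threshold. edgeR's exact test called 189 higher and 72 lower and DESeq2 227 and 98, against 84 and 24 with limma, and both called 4 members: *Tnfrsf1a*, *Tnfrsf12a* (1.81), *Fas* (0.57) and *Ltbr* (0.43). With a pseudocount of 1, 2 members were called, *Tnfrsf12a* (1.21) being the second, and the median of the TNF-induced targets was 0.30. It was 0.27 at a minimum mean CPM of 2, where *Tnf* and *Tnfrsf11b* could not be tested. With no filter the ligand median turned to 0.11 over 11 genes.

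When libraries were left out singly, 39 to 72 genes were higher, with the lowest counts without DT replicate 1 (39) and DT replicate 2 (40). From 9 to 20 were lower, with 11, 9 and 10 without PBS replicates 1, 2 and 3 and 10 without DT replicate 2. From 1 to 2 members were called, *Tnfrsf12a* joining without PBS replicate 3. The log2 differences ranged from 0.90 to 1.11 for *Tnfrsf1a*, 1.52 to 2.18 for *Tnfrsf12a*, 0.46 to 0.65 for *Fas*, 0.36 to 0.49 for *Ltbr* and 1.60 to 3.13 for *Tnf*. Small differences changed sign, with ranges of -0.16 to 0.42 for *Tnfrsf11b* (lowest without PBS replicate 1), -0.0332 to 0.10 for *Tnfrsf19* (lowest without DT replicate 1), -0.0213 to 0.0415 for *Tnfrsf21* (-0.0110 without PBS replicate 2, -0.0213 without DT replicate 3) and -0.00913 to 0.0799 for *Ripk1* (lowest without PBS replicate 1). List medians ranged from -0.32 to -0.20 for ligands, 0.0239 to 0.18 for other receptors, -0.0347 to 0.0153 for receptor-proximal signalling and 0.31 to 0.45 for TNF-induced targets. *Tnf* passed in 0 of 16 alternatives, with adjusted p-values from 0.0621 to 0.536.

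The labels do not say that a replicate number marks an experiment. Deviations of same-numbered libraries correlated by 0.115, 0.0105 and 0.118 for replicates 1, 2 and 3. Those of differently numbered libraries correlated by -0.124 to 0.0115, a range that holds the value of replicate 2 and lies below the others. Pairing was thus neither shown nor excluded. The replicate block gave 79 higher and 30 lower genes, *Tnfrsf1a* stayed at 1.04 (adjusted p = 0.0207) and no member changed its call.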
